A study of Mus musculus with 17 samples.

Results

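The digestive enzymes of the exocrine pancreas and the transcription factors of the acinar cells that make them were followed through bulk RNA-seq of isolated mouse pancreatic islets. The 36 genes were taken by name from both deposited count tables, where they are 36 of 78239 gene identifiers in the first table and 36 of 73212 in the second. They comprise 13 serine proteases, 2 carboxypeptidases, 6 lipases and their partners, 2 nucleases, 6 granule or other secreted proteins, 4 transcription factors and 3 other acinar genes. All mice were male, and the *Pax4* R192H line was on the C57BL6/N background. The first table held islets of wildtype mice (labelled *Pax4* WT) and of mice homozygous for a knock-in of the *Pax4* R192H variant (labelled *Pax4* HH), which were littermates. Both genotypes were sampled at 12 weeks of age on a standard chow diet (SCD) and at 16 weeks after 4 weeks of a high-fat diet (HFD), with 3 mice in each of the 4 groups. Diet and age therefore changed together. The second table held 3 *Pax4* βiKO mice (labelled Pax4-BiKO), in which *Pax4* was floxed and Pdx1-CreERT2 was present, and 2 control mice with floxed *Pax4* and no Cre. Both of these groups received tamoxifen between 7 and 9 weeks of age and were sampled at 20 weeks after 8 weeks of HFD, which began at 12 weeks. The transgene acts where *Pdx1* is expressed, which is mostly but not only in β cells.

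Acinar cells make up most of the pancreas and surround the islets. They synthesize digestive enzymes, largely as inactive zymogens, store them in zymogen granules and release them into the ducts when cholecystokinin or vagal input arrives. PTF1A, together with RBPJL, drives transcription of the enzyme genes, NR5A2 assists it, and BHLHA15 (also called MIST1) organizes the secretory apparatus. Islet cells do not normally make these enzymes, and islets isolated from the pancreas usually carry some acinar tissue along. Because whole islet preparations were sequenced, more or fewer acinar cells and more or less of an RNA per acinar cell cannot be told apart.

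Levels are given in CPM, which denotes counts as parts per 1e6 of the library total after scaling by edgeR's TMM method within each table, and levels are not compared between the tables. The preparations carried the markers of islets at high levels. *Ins2*, the main insulin gene, lay between 14522 and 69229 CPM over the 17 mice. The 36 acinar genes took 1.53% to 7.35% of the counts of a mouse in the first table and 1.85% to 10.5% in the second. The mice of the first table had 24268157 to 42679645 counts each and those of the second 28618835 to 31887537. *Pax4* itself was listed at 0 counts in all 17 mice, so the genotype labels could not be checked on the targeted gene. With 3 counts as the floor, a level of up to 0.124 parts per 1e6 of the unscaled total is allowed. This bound is for the library with the smallest unscaled total, that of SCD-fed *Pax4* R192H replicate 3. An error after a log2 fold change is its standard error, and one after a CPM is the SD.

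The trypsinogens, which are activated in the gut to trypsin and then activate the other zymogens, include members whose counts are hard to separate. *Try4*, *Try5*, *Try10*, *Prss3* and *Prss2* form a cluster on chromosome 6 (GRCm38) from 41302269 to 41525079, between 12.85 and 13.07 Mb from *Pax4*, which lies at 28442334 to 28449353 on the same chromosome. Their coding sequences have the same length, 738 bases, and are 88.62% (*Prss2* and *Prss3*) to 97.43% (*Try4* and *Try5*) identical in the GENCODE M21 annotation. The first 120 coding bases, shown to make the closeness visible, encode the signal peptide, the activation peptide and the start of the enzyme, and capitals mark each base that differs from *Try4*.
Try4: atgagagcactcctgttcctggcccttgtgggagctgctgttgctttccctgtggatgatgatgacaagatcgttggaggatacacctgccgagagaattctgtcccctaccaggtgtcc
Try5: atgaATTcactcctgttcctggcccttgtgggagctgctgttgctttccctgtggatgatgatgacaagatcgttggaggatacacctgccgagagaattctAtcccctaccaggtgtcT
Try10: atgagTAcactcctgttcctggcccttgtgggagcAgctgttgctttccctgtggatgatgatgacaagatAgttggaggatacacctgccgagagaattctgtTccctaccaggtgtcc
Prss3: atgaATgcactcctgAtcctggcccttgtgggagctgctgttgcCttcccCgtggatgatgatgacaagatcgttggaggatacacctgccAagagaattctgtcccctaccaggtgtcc
Prss2: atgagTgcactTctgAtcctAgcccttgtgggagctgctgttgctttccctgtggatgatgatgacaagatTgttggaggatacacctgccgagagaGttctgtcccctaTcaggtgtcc
Within this stretch the other 4 genes differ from *Try4* at no more than 7 positions. Of all 100-base windows of its protein-coding transcripts, *Prss3* shared 44.95% with another gene (*Gm10334*, *Gm5771* and *Prss1*), *Try4* shared 30.2%, *Try5* 22.47% and *Try10* 11.56%, whereas *Prss2* shared none. RSEM divides reads that fit several transcripts by estimate, so the split among these genes is uncertain. Shared windows were also found for *Cela2a* (21.73%), *Cela3b* (12.58%), *Cela3a* (12.11%) and *Klk1* (5.81%), and in no protein-coding transcript of the other 28 members. The windows of *Cela2a* were shared with a transcript of *Ctrc* outside its protein-coding ones, so the split between *Cela2a* and *Ctrc* is uncertain as well.

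The promoters of the enzyme genes are known for paired motifs read by the PTF1 complex, an E-box and a TC-box. The 250 bases before the start of transcription (RefSeq, GRCm38.p6) were available for 28 of the 36 genes as 30 windows. The E-box CACCTG stood on either strand in 56.67% of these windows and in 17.22% of all 32851 promoter windows of the same length. CAGCTG was in 16.67% against 13%, and the TC-box TTTCCC in 23.33% against 21.95%. The NR5A2 motif CAAGGTCA was in 6.667% of the members' windows, those of *Cel* and *Klk1*, against 1.333% of all windows. An E-box and a TC-box whose starts lay within 25 bases of each other were found in 10% of the members' windows against 1.266% of all windows. Of the 4 promoters below, those of the elastase gene *Cela1*, the chymotrypsinogen gene *Ctrb1* and the bile salt-activated lipase gene *Cel* are the 3 that hold such a close pair, and that of *Prss2* holds both motifs farther apart. Capitals mark these E-boxes, the TC-box and the NR5A2 motif on either strand, and each sequence is written 5′ to 3′ in the direction of transcription.
Cela1, chr15:100687921-100688170, minus strand: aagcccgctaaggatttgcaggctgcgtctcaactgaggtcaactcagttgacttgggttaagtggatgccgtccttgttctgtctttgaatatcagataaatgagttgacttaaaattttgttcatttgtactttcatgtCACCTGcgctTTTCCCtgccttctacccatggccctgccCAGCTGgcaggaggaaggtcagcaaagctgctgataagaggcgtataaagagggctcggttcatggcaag
Ctrb1, chr8:111691011-111691260, minus strand: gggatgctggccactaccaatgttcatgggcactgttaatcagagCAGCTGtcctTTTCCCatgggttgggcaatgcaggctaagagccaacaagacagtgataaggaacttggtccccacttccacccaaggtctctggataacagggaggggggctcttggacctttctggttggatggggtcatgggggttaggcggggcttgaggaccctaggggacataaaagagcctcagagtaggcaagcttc
Cel, chr2:28563404-28563653, minus strand: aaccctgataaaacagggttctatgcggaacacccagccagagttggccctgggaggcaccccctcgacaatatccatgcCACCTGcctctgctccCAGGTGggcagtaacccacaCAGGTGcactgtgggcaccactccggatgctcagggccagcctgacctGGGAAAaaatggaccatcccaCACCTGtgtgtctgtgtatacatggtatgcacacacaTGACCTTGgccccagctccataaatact
Prss2, chr6:41521526-41521775, plus strand: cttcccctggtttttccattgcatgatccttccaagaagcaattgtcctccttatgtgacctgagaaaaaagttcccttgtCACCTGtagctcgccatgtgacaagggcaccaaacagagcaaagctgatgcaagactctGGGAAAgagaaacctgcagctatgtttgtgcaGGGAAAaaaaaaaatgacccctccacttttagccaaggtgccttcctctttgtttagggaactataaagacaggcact
In *Cela1* the CACCTG began 109 bases and the TTTCCC 99 bases before the start, and in *Ctrb1* the CAGCTG began 205 bases and the TTTCCC 195 bases before it. A match of letters is a description of the sequence and not of binding.

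Levels of the 36 genes spanned a wide range when divided by the length of their exons. Over the 12 mice of the first table, the mean was highest for *Prss2* at 2846 CPM per kb, followed by *Ctrb1* (2286), *Cela2a* (2233), *Try4* (1897) and *Pnlip*, pancreatic triglyceride lipase (1531). The SD over mice of *Prss2* alone was 2775 CPM per kb, so neighbours in this order did not differ beyond their spread. The order also differed between groups, with *Prss2* first in HFD-fed *Pax4* R192H (6392 CPM per kb) and both wildtype groups (2110 on the HFD and 1544 on the SCD) and *Ctrb1* first in SCD-fed *Pax4* R192H islets (1695 against 1339 for *Prss2*). The lowest means over the 12 mice were those of *Nr5a2* (0.293 CPM per kb), *Cela3a* (0.353), *Dnase1* (0.422), *Ptf1a* (0.612) and *Rbpjl* (0.800). The 10 members with the highest mean CPM made up between 79.3% and 83.1% of the summed CPM of all 36 genes in every mouse.

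After TMM scaling, the summed level of the 36 genes separated the HFD-fed *Pax4* R192H mice from all others of the first table. It was 15605, 13448 and 26121 CPM in the 3 SCD-fed wildtype mice, 13564, 15590.4 and 20387 in the SCD-fed *Pax4* R192H mice and 20077, 26114 and 16955 in the HFD-fed wildtype mice. In the HFD-fed *Pax4* R192H mice it was 106311, 38823 and 40639.7 CPM. On this scale each of these 3 mice stood above every other mouse of the table, and replicate 1 stood far above replicates 2 and 3. The separation of replicate 2 depended on the scaling. Unscaled, the 36 genes took 2.698% of its counts, less than the 3.312% of SCD-fed wildtype replicate 3. Replicates 1 and 3, at 7.353% and 3.341%, stayed above all mice of the other groups, replicate 3 only narrowly. After scaling, the mean of the HFD-fed *Pax4* R192H group was 61924 ± 38450.4 CPM (SD, n = 3) against 21049 ± 4656 in HFD-fed wildtype islets. For 35 of the 36 genes, all but *Dnase1*, HFD-fed *Pax4* R192H replicate 1 had the highest CPM of the 12 mice. Among the 6 SCD-fed mice, wildtype replicate 3 was highest for 27 genes.

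**Figure D1:**
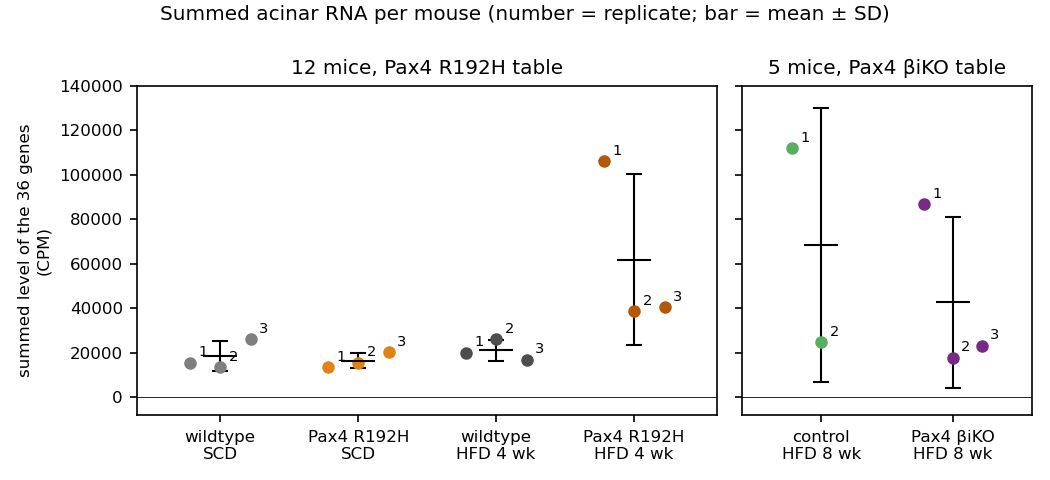
Summed CPM of the 36 acinar genes in each mouse (points, numbered by replicate), with the mean and SD of each group (bars), in CPM; the 2 tables are in separate panels because each was normalized on its own. After TMM scaling, the HFD-fed Pax4 R192H mice (38823 to 106311 CPM) lie above the other 9 mice of the first table. By unscaled share of counts, which is not drawn, their replicate 2 is below SCD-fed wildtype replicate 3. In the second table replicate 1 of each genotype lies above the other 3 mice.

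**Figure D2:**
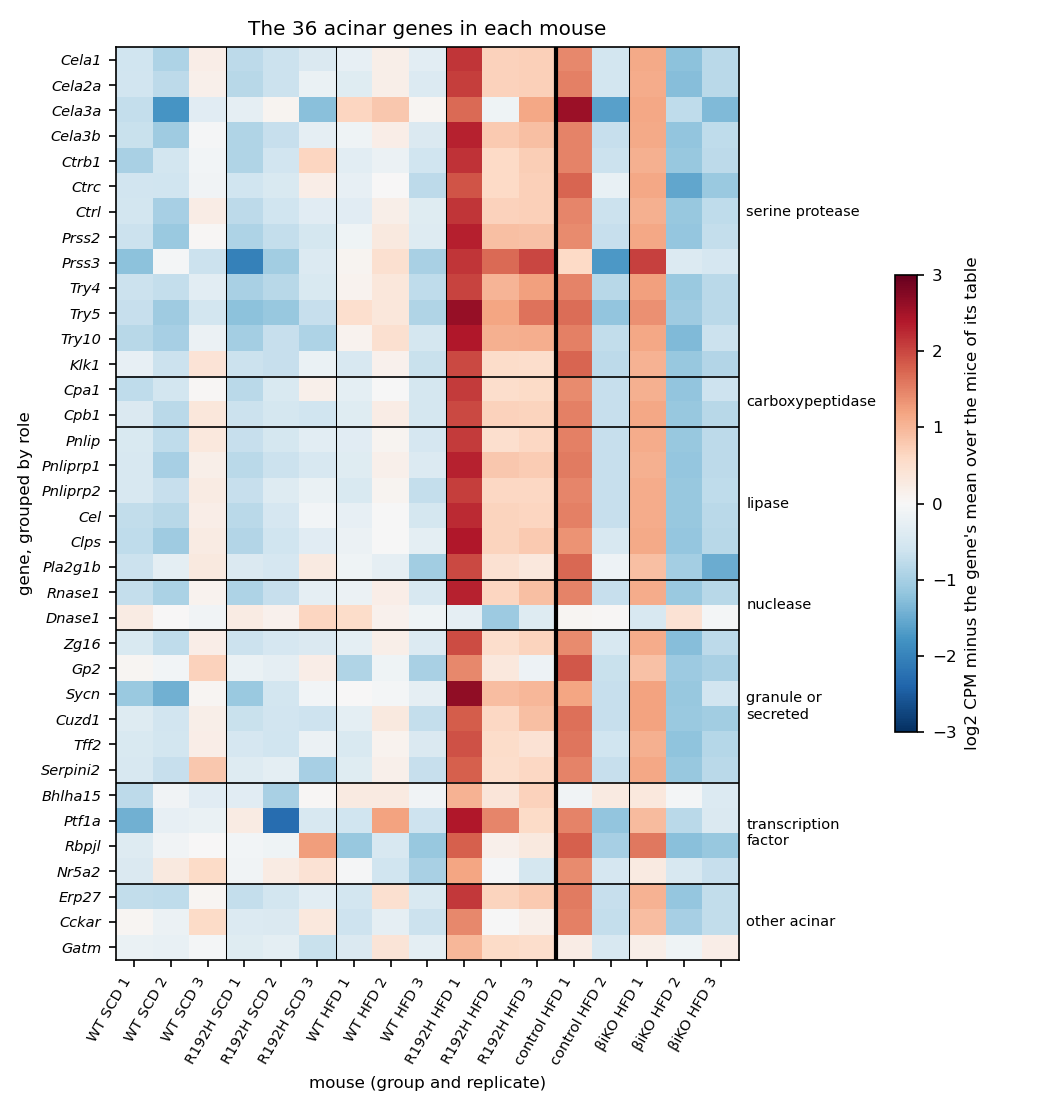
Log2 CPM of each acinar gene (rows, grouped by role) in each mouse (columns), as the difference from the gene's mean over the mice of the same table. Whole columns shift together, most of all HFD-fed Pax4 R192H replicate 1, control replicate 1 and βiKO replicate 1, and the rows of Dnase1 (both tables) and of Bhlha15 and Gatm (second table) do not follow them.

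The comparison of *Pax4* R192H with wildtype islets on the HFD asks how the variant changes islets under metabolic stress. The acinar genes were higher in the HFD-fed *Pax4* R192H islets, with a median log2 fold change of 1.50 over the 36 genes, against -0.01 over all 19137 genes tested. The fitted value was above 0 for 35 genes. Using edgeR's quasi-likelihood test, 10 genes rose (adjusted p-value below 0.05 over all genes tested and a log2 fold change above 0.5 in either direction) and none fell, where 1.46% of all genes tested were called higher and 0.82% lower. Unadjusted p-values were below 0.05 for 33 members and for 15.9% of all genes. Another 19 members had adjusted p-values between 0.05 and 0.1, close to the threshold, and 7 had larger ones. DESeq2, the tool of the study's own methods, called 29 of the 36 higher, against 3.62% of the genes it tested. In 31 genes the 3 HFD-fed *Pax4* R192H mice all exceeded the 3 HFD-fed wildtype mice, as in 13% of all genes, and in 1 gene, *Dnase1*, all lay below them, as in 9.89%. *Cela3a*, *Gp2*, *Ptf1a* and *Nr5a2* were the 4 genes whose groups overlapped.

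Among the serine proteases, 7 of 13 rose. *Prss3*, a trypsinogen, had the largest change. It was 11.4, 15.1 and 5.50 CPM in the wildtype mice and 47.4, 35.0 and 43.3 in the *Pax4* R192H mice (log2 fold change 1.98 ± 0.40, edgeR adjusted p = 0.0252). Unlike most members, it was about as high in replicates 2 and 3 as in replicate 1. *Try5*, another trypsinogen, was 964, 868 and 366 CPM in wildtype and 4200.1, 1564 and 2114 in *Pax4* R192H islets (log2 fold change 1.84 ± 0.38, edgeR adjusted p = 0.0266). *Try4* was 1282, 1512 and 704 CPM against 4899.9, 2421 and 2795 (log2 fold change 1.53 ± 0.30, edgeR adjusted p = 0.0219). Its wildtype values spread over about as wide a ratio as its *Pax4* R192H values, and the groups did not overlap. *Try10*, whose level was much lower, was 23.3, 30.2 and 14.9 CPM against 114, 45.1 and 45.8 (log2 fold change 1.58 ± 0.35, edgeR adjusted p = 0.0343). *Prss2*, the trypsinogen without shared windows, was 1623, 2169.6 and 1366 CPM against 8982, 3343 and 3302 (log2 fold change 1.60 ± 0.38, edgeR adjusted p = 0.0451). All 5 trypsinogens thus rose.

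*Cela3b*, a pancreatic elastase, was 903, 1141 and 730.3 CPM in wildtype and 4952, 1713 and 1868 in *Pax4* R192H islets (log2 fold change 1.62 ± 0.38, edgeR adjusted p = 0.0436). *Ctrc*, a chymotrypsin that degrades trypsinogen, was 6.24, 7.44 and 4.30 CPM against 27.2, 11.2 and 12.2 (log2 fold change 1.49 ± 0.34, edgeR adjusted p = 0.0377). Both sets of 3 mice were apart for these genes, with replicate 1 of the *Pax4* R192H mice far above replicates 2 and 3. *Cela2a*, the elastase with the highest CPM of the serine proteases, was 2461, 3607 and 2375 CPM against 13385, 5080.0 and 5179 and did not pass the test (log2 fold change 1.49 ± 0.37, edgeR adjusted p = 0.0554). The other 4 uncalled proteases with separate groups, *Cela1*, *Ctrb1*, *Ctrl* and the kallikrein gene *Klk1*, had log2 fold changes of 1.46, 1.72, 1.51 and 1.49. *Cela3a* rested on between 6 and 25 counts per HFD-fed mouse, and its log2 fold change was 0.57 ± 0.64 (edgeR adjusted p = 0.729).

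The carboxypeptidases trim amino acids from the ends of peptides. *Cpb1* was 1734, 2608 and 1559 CPM in wildtype and 8879, 3626 and 3561 CPM in *Pax4* R192H islets (log2 fold change 1.45 ± 0.36, edgeR adjusted p = 0.0568), and the value of *Cpa1* was 1.53 ± 0.40 (edgeR adjusted p = 0.0617) on the log2 scale. Neither was called, although both had separate groups.

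Of the 6 lipases and their partners, 2 rose. *Pnliprp1*, a relative of pancreatic lipase, was 810.1, 1158 and 777 CPM in wildtype and 5082, 1813 and 1744 CPM in *Pax4* R192H islets (log2 fold change 1.65 ± 0.39, edgeR adjusted p = 0.0436). *Pnliprp2*, which hydrolyses galactolipids and other fats, was 98.0, 142 and 82.3 CPM against 569, 206 and 207 (log2 fold change 1.61 ± 0.37, edgeR adjusted p = 0.0418). *Pnlip* itself was 2193, 2939 and 1965 CPM against 11883, 3956 and 4284 and was not called (log2 fold change 1.50 ± 0.39, edgeR adjusted p = 0.0613). The groups of all 6 genes were apart. The log2 fold changes of *Cel*, of colipase (*Clps*), which anchors the lipase to fat droplets, and of the phospholipase gene *Pla2g1b* were 1.65, 1.68 and 1.56.

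The nucleases parted. *Rnase1*, pancreatic ribonuclease, was 244, 315 and 197 CPM in wildtype and 1354, 432 and 512 CPM in *Pax4* R192H islets (log2 fold change 1.60 ± 0.39, edgeR adjusted p = 0.0528). *Dnase1*, a secreted deoxyribonuclease, was 1.84, 1.36 and 1.15 CPM against 1.04, 0.587 and 0.956, lower in every *Pax4* R192H mouse and not called (log2 fold change -0.74 ± 0.34, edgeR adjusted p = 0.298). It rested on 14 to 69 counts per HFD-fed mouse and was the only member with a negative value in this comparison.

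Among the proteins of the zymogen granule and other secreted products, *Cuzd1*, a membrane protein of the granule, rose. It was 56.0, 84.5 and 42.2 CPM in wildtype and 242, 106 and 128 CPM in *Pax4* R192H islets (log2 fold change 1.38 ± 0.30, edgeR adjusted p = 0.0336). *Zg16*, a lectin of the granule matrix, was 321, 447 and 299 CPM against 1527, 574 and 628 and did not pass (log2 fold change 1.36 ± 0.34, edgeR adjusted p = 0.0556). Syncollin (*Sycn*), trefoil factor 2 (*Tff2*) and the serpin gene *Serpini2* had log2 fold changes of 1.87, 1.37 and 1.36 with separate groups. *Gp2*, the main glycoprotein of the granule membrane, had 1.31 ± 0.36 (edgeR adjusted p = 0.0758), and its lowest *Pax4* R192H mouse (127 CPM) was just below its highest wildtype mouse (129 CPM).

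None of the 4 transcription factors passed the test. *Bhlha15* was 27.4, 27.7 and 21.2 CPM in wildtype and 46.9, 29.4 and 36.9 CPM in *Pax4* R192H islets (log2 fold change 0.57 ± 0.25, edgeR adjusted p = 0.269), with the groups just apart. *Rbpjl* was 1.73, 2.73 and 1.74 CPM against 13.2, 4.24 and 4.72 (log2 fold change 1.84 ± 0.46, edgeR adjusted p = 0.0554). All 3 *Pax4* R192H mice were above the wildtype mice in this gene, and DESeq2 called it (DESeq2 adjusted p = 0.00127). *Ptf1a* was 0.427, 1.47 and 0.417 CPM against 3.36, 1.76 and 0.956 (log2 fold change 1.41 ± 0.67, edgeR adjusted p = 0.331), on 16 to 94 counts per mouse. *Nr5a2* was 1.55, 1.06 and 0.807 CPM against 3.65, 1.55 and 1.11 (log2 fold change 0.88 ± 0.44, edgeR adjusted p = 0.354). In the last 2 genes the groups overlapped.

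Of the remaining acinar genes, *Cckar*, the cholecystokinin receptor through which enzyme release is triggered in mice, was 4.19, 5.32 and 4.06 CPM in wildtype and 17.5, 6.34 and 7.09 CPM in *Pax4* R192H islets (log2 fold change 1.19 ± 0.36, edgeR adjusted p = 0.102). *Gatm*, which makes the creatine precursor guanidinoacetate and is not restricted to acinar cells, was 14.1, 24.8 and 15.5 CPM against 38.1, 28.5 and 27.5 (log2 fold change 0.79 ± 0.20, edgeR adjusted p = 0.0588). *Erp27*, a chaperone-like protein of the endoplasmic reticulum, differed by 1.45 ± 0.38 (edgeR adjusted p = 0.0666) on the log2 scale. Groups were apart in all 3 genes, and none was called.

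**Figure D3:**
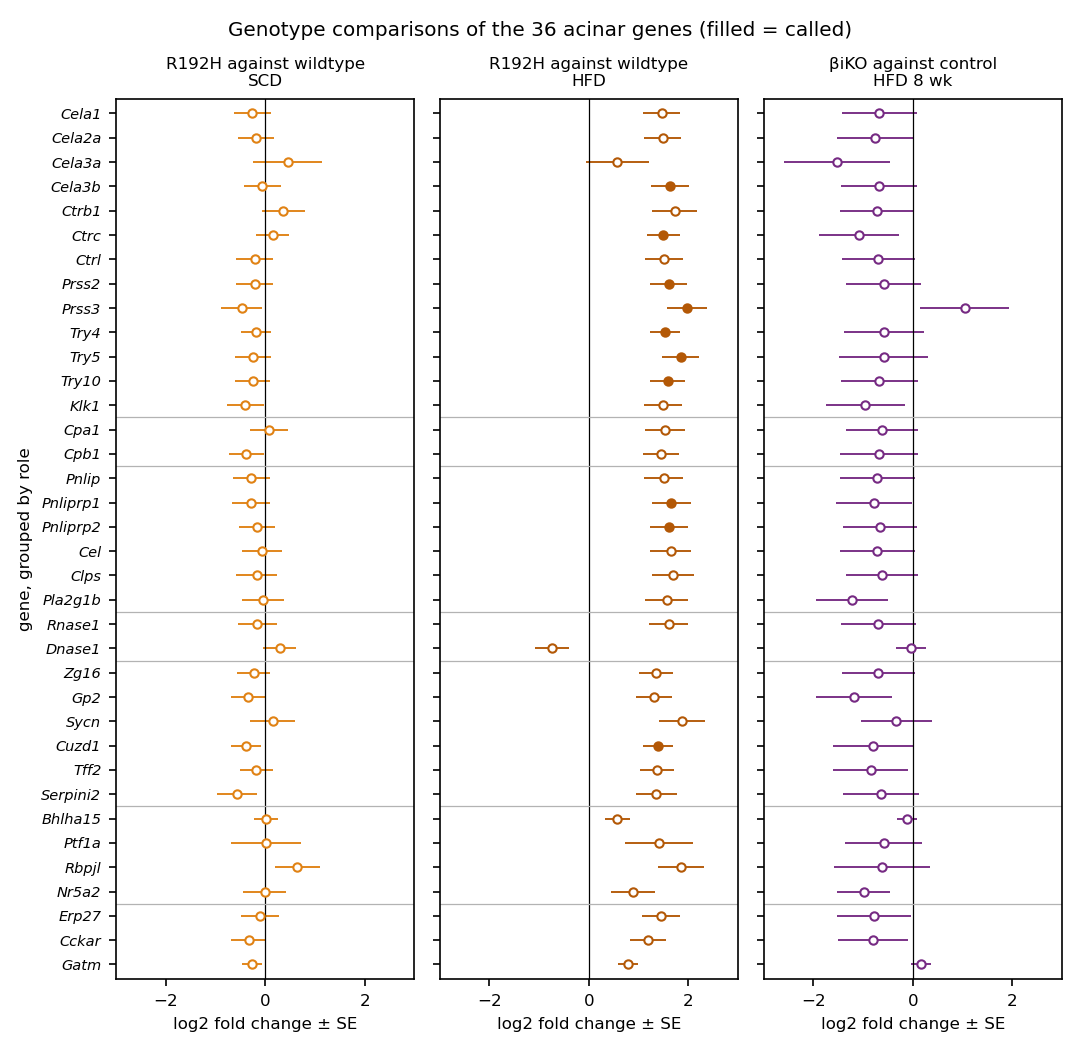
Log2 fold change ± standard error from edgeR of each acinar gene (rows, grouped by role) for Pax4 R192H against wildtype on the SCD and on the HFD, and for βiKO against control; filled points passed the test. On the HFD 35 of 36 points lie above 0 and 10 are filled, on the SCD the points scatter around 0, and none of the βiKO points is filled, with wider bars than on either diet for all but Dnase1, Bhlha15 and Gatm.

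How many of these genes were called depended on single mice, while their median stayed above 0. With HFD-fed *Pax4* R192H replicate 1 left out, 0 members and 0.479% of all genes were called higher, and the median log2 fold change of the members was 0.86. With *Pax4* R192H replicate 2 or 3 left out, 3 and 4 members were called higher (0.339% and 0.492% of all genes), and with wildtype replicate 1, 2 or 3 left out, 1, 9 and 0 (0.416%, 1.42% and 0.301%). The median then lay between 1.34 and 1.74. Without TMM scaling 3 members (*Prss3*, *Try4* and *Try5*) and 0.345% of all genes were called higher, and the median of the members was 1.09 while that of all genes moved to -0.40. The summed CPM of the 11 islet endocrine markers ranged from 78185 to 105687 in wildtype and from 112603 to 126379 in *Pax4* R192H islets. By edgeR 0 of 11 were called, and DESeq2 called 1 lower, where it called 5.39% of the genes it tested in either direction. Every *Pax4* R192H mouse was above every wildtype mouse in *Iapp*, *Pcsk1* and *Pcsk2* and below in *Nkx6-1*, a beta cell transcription factor, at 78.8, 55.6 and 68.7 CPM in wildtype mice against 37.0, 40.1 and 44.2, and the groups overlapped in the other 7. The summed CPM of the 13 duct markers ranged from 315 to 370.1 and from 481 to 496 CPM. Of the 12 duct markers tested, *Krt18*, a keratin also found in acinar cells, was called higher (0.63 ± 0.15, edgeR adjusted p = 0.0414). DESeq2 called 3 duct markers higher, against 3.62% of the genes it tested. In 6 of the 13 duct markers, *Krt7*, *Krt8*, *Krt18*, *Spp1*, *Muc1* and *Epcam*, every *Pax4* R192H mouse was above every wildtype mouse, and in none below, where 13% of all genes tested were apart upward and 9.89% downward. *Krt8*, the partner of *Krt18*, was 81.3, 81.8 and 77.6 CPM in wildtype mice against 127, 126 and 113, and *Krt7* was 62.0, 68.8 and 79.0 against 98.0, 89.3 and 85.8. The groups overlapped in the other 7, among them *Krt19*, at 1.17, 0.751 and 1.07 CPM against 1.72, 0.881 and 0.648, and *Tff1*, at 0 in every mouse. Markers other than *Krt18*, *Krt8* and *Epcam* are named after their values were seen. The part of these markers in the result was not tested.

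**Figure D4:**
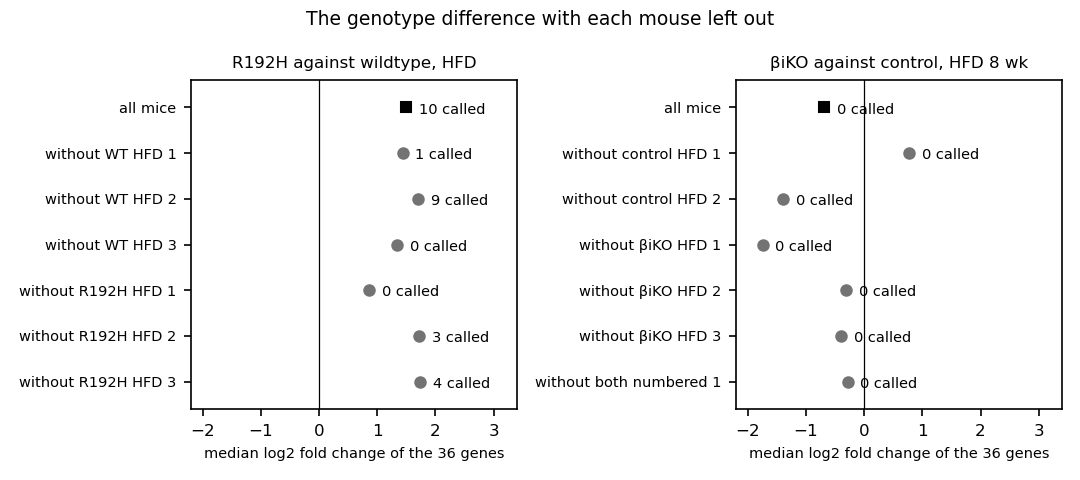
Median log2 fold change over the 36 acinar genes with all mice (squares) and with 1 mouse, or both mice numbered 1, left out (circles), with the number of members called beside each point; left, Pax4 R192H against wildtype on the HFD, and right, βiKO against control. The left values stay between 0.86 and 1.74 while the number called ranges from 0 to 10, and the right value moves from -0.69 to 0.77 without control replicate 1.

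On the SCD, the genotypes were compared to see whether the variant acts without metabolic stress. None of the 36 genes was called by edgeR, which called 0% of all genes, or by DESeq2, which called 0.0226% higher and 0.0813% lower, and 0 had an unadjusted p-value below 0.05 (3.29% of all genes tested did). The median log2 fold change was -0.18, with 9 genes above 0, and values ran from -0.57 (*Serpini2*) to 0.65 (*Rbpjl*). The genotypes overlapped in the abundant enzymes. *Cela2a* was 2142, 1826 and 3521 CPM in wildtype and 1788, 2035 and 2768 CPM in *Pax4* R192H mice, *Pnlip* was 2038, 1658 and 3483 against 1741, 1945 and 2245, and *Cpb1* was 1665, 1285 and 2853 against 1432, 1547 and 1491. In each of these genes the highest mouse was wildtype replicate 3. The trypsinogen genes that rose on the HFD did not separate the genotypes on the SCD. *Try5* was 425, 328 and 465 CPM against 290.0, 312 and 426, and *Prss3* was 4.58, 10.5 and 6.93 against 2.67, 5.21 and 8.17. The groups overlapped in 34 genes. In *Cuzd1* (52.9, 46.2 and 77.6 CPM against 43.3, 46.1 and 45.0) and *Gatm* (16.5, 16.2 and 18.4 against 14.9, 15.5 and 12.1), every *Pax4* R192H mouse was below every wildtype mouse, as in 4.22% of all genes tested. The factors overlapped, with *Bhlha15* at 13.2, 21.2 and 17.9 CPM against 18.0, 11.6 and 23.4 and *Rbpjl* at 2.93, 3.54 and 3.86 against 3.61, 3.53 and 9.20, the last value being the highest of the SCD-fed mice. *Ptf1a* was 0.236, 0.536 and 0.555 CPM against 0.763, 0.132 and 0.458, on 5 to 30 counts.

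Whether the genotype effect differed between the diets was tested as an interaction. Its median over the 36 genes was 1.69 on the log2 scale and 35 values were above 0, but edgeR called 0 members (0.131% of all genes tested were called), with 31 members and 11.2% of all genes at an unadjusted p-value below 0.05. The lowest adjusted p-value was that of *Prss3* (2.45 ± 0.57, edgeR adjusted p = 0.109), followed by *Cuzd1* (1.78 ± 0.43, edgeR adjusted p = 0.117) and *Try4* (1.72 ± 0.42, edgeR adjusted p = 0.127). DESeq2 called 5 members higher, *Cuzd1*, *Gatm*, *Prss3*, *Try4* and *Try5*, against 1.06% of the genes it tested. Without HFD-fed *Pax4* R192H replicate 1 the median of the interaction was 1.03. A larger genotype effect on the HFD than on the SCD was therefore not shown by edgeR for any single member.

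The response to HFD and age was compared within each genotype, using the same SCD and HFD mice as above. In wildtype islets no member was called (0.371% of all genes were), and the median log2 fold change was 0.15, on values from -0.88 (*Gp2*) to 1.32 (*Cela3a*). Unadjusted p-values were below 0.05 for 3 members and for 15.2% of all genes. Every HFD-fed wildtype mouse was above every SCD-fed one in *Cela3a* and *Bhlha15*, and below in *Gp2*, *Rbpjl* and *Cckar*, where 8.47% and 9.46% of all genes were apart in these directions. *Gp2* was 147, 134 and 229 CPM on the SCD and 76.3, 129 and 72.2 on the HFD. In *Pax4* R192H islets 30 members rose, against 9.75% of all genes called higher, and none fell, against 5.91%. The median was 1.79 and DESeq2 also called 30 higher, against 10% of the genes it tested. The groups were apart upward in 29 members and 21.3% of all genes, and downward in *Dnase1* and 20.6% of all genes. The largest values were those of *Prss3* (2.99 ± 0.42, edgeR adjusted p = 0.00069), *Try5* (2.94 ± 0.40, edgeR adjusted p = 0.000515) and *Try10* (2.54 ± 0.36, edgeR adjusted p = 0.000752). *Bhlha15* (1.10 ± 0.25, edgeR adjusted p = 0.00961) and *Ptf1a* (2.16 ± 0.70, edgeR adjusted p = 0.0489) were the factors among the 30. Without TMM scaling both calls were lost (edgeR adjusted p = 0.228 and 0.102). That of *Ptf1a* was also lost with SCD-fed replicate 2 or 3 or HFD-fed replicate 1 or 2 left out (edgeR adjusted p = 0.0993 to 0.192), in a range of 0.00326 to 0.192 over all alternatives. Leaving out 1 mouse left 24 to 30 members called, the fewest without HFD-fed replicate 1. Those not called were *Cela3a*, *Gp2*, *Rbpjl*, *Nr5a2*, *Cckar* and *Dnase1*, with values of 1.45, 0.77, 0.45, 0.20, 0.83 and -0.88. Because this comparison and the genotype comparison on the HFD share the same 3 mice, their calls are not independent. Without replicate 1 of these mice the median was 1.12. Without TMM scaling the median of all genes in this comparison moved from -0.06 to -0.79, and that of the members from 1.79 to 1.04. Leaving out the scaling shifts all fold changes of a comparison by nearly the same amount. The distance between the 2 medians therefore cannot test the result.

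The *Pax4* βiKO mice were compared with controls to see what loss of *Pax4* in adult islets does. None of the 36 acinar genes was called, by edgeR or by DESeq2 (of all genes, edgeR called 0.0893%, and DESeq2 called 0.825% higher and 1.22% lower), and 0 had an unadjusted p-value below 0.05, against 12.8% of all 20167 genes. The median log2 fold change was -0.69, against 0.01 over all genes. Without a filter on low counts, edgeR called 29 of the 36 genes, and 697 of all genes in place of 18. In all 36 genes the groups overlapped, while 15.9% and 16.7% of all genes were apart upward and downward. The summed CPM of the 36 genes was 111979 and 24948 in the 2 controls and 86944, 17795 and 23173 in the 3 *Pax4* βiKO mice. Control replicate 1 and βiKO replicate 1 were the highest 2 of the 5 mice in 33 of the 36 genes, all but *Dnase1*, *Bhlha15* and *Gatm*. The SD within each group was wider than the difference between the group means, 68463 ± 61540.2 CPM (SD, n = 2) and 42637 ± 38465 CPM (SD, n = 3). Without control replicate 1 the median turned to 0.77, and without βiKO replicate 1 it was -1.74. With both of these mice left out, which leaves 1 control mouse whose spread is assumed to be like that of the 2 βiKO mice, it was -0.28, with 0 members called.

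The same split of mice ran through all the enzyme groups of this table. *Cela2a* was 12611 and 2985 CPM in the controls and 9488, 1813 and 2516 in the *Pax4* βiKO mice (log2 fold change -0.76 ± 0.76, edgeR adjusted p = 0.716). *Pnlip* was 16370.2 and 3549 CPM against 12345, 2598 and 3336 (log2 fold change -0.71 ± 0.76, edgeR adjusted p = 0.733), *Cpb1* was 11486 and 2470.4 against 8994, 1826 and 2253, and *Rnase1* was 1489 and 329 against 1143, 245 and 297. The other lipases called in the *Pax4* R192H comparison followed, with *Pnliprp1* at 5849 and 1210.5 CPM against 4121, 884 and 1149.6 and *Pnliprp2* at 672 and 152 against 529.7, 112 and 146. The secreted proteins *Zg16* (1469 and 391 CPM against 1178, 227 and 319) and *Cuzd1* (385 and 76.1 against 284, 56.2 and 59.0) had the same order of mice. So had *Cela3b*, at 4850.2 and 1064 CPM against 3793, 760.5 and 1005, and *Ctrc*, at 28.6 and 7.26 against 18.9, 2.87 and 3.89. *Prss2* was 8676 and 2006 CPM against 7236, 1462 and 1970.1, *Try4* 3981 and 798 against 3331, 654 and 813, *Try5* 4549 and 628 against 3686, 677 and 812 and *Try10* 68.1 and 14.3 against 52.9, 9.52 and 15.2.

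*Prss3* was of the opposite sign to the other trypsinogens in this table. It was 11.8 and 2.39 CPM in the controls and 32.3, 5.90 and 5.58 in the *Pax4* βiKO mice, and its fitted value was positive and not called (log2 fold change 1.04 ± 0.89, edgeR adjusted p = 0.667). βiKO replicate 1 was above control replicate 1 and the other βiKO mice were above control replicate 2, although the groups overlapped. *Gatm*, the other member with a value above 0, was 63.3 and 38.6 CPM against 60.8, 49.3 and 61.6 (log2 fold change 0.17 ± 0.20, edgeR adjusted p = 0.759). *Dnase1* was 2.79 and 2.75 CPM against 1.91, 3.63 and 2.54 (log2 fold change -0.037 ± 0.30, edgeR adjusted p = 0.969) and did not follow the 2 high mice. Nor did *Bhlha15*, at 32.8 and 42.4 CPM against 44.0, 34.0 and 26.4 (log2 fold change -0.11 ± 0.21, edgeR adjusted p = 0.847). The other factors did, with *Ptf1a* at 2.53 and 0.398 CPM against 1.73, 0.514 and 0.674, *Rbpjl* at 11.7 and 1.69 against 10.2, 1.42 and 1.53 and *Nr5a2* at 6.58 and 1.72 against 2.98, 1.75 and 1.53. *Cckar* was 23.3 and 4.94 CPM against 15.4, 4.08 and 4.90. The summed CPM of the 13 duct markers ranged from 652 to 654 in controls and from 750.2 to 819 in *Pax4* βiKO mice. Of these markers *Muc1* was highest in the 2 high mice, at 7.55 and 1.49 CPM in the controls against 5.13, 1.90 and 1.62, as was *Sox9*, which was below 1 CPM in all 5 mice, and the other 11 were not.

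Because most of the 36 genes were high or low in the same mice, each was also expressed as its share of their summed CPM in the same mouse. The SD over the 12 mice of the first table was smaller for the log2 share than for the log2 CPM in 34 genes, all but *Dnase1* and *Nr5a2*, with medians of 0.218 and 0.843. In the second table it was smaller in 33 genes, all but *Dnase1*, *Bhlha15* and *Gatm*, with medians of 0.111 and 1.22. These shares sum to a fixed total, so that a larger share of one gene lowers the others, and they are given as a description without a test.

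In 7 genes the shares of the 6 HFD-fed mice of the first table did not overlap with those of the 6 SCD-fed mice. *Prss2* made up 6.08% to 7.28% of the acinar sum on the SCD and 8.05% to 8.61% on the HFD, *Cela3b* 3.55% to 4.07% and 4.31% to 4.66%, and *Try10* 0.0556% to 0.0851% and 0.0877% to 0.116%. These were the 3 genes with larger shares on the HFD. *Gp2* was apart the other way, with 0.753% to 0.994% on the SCD and 0.313% to 0.494% on the HFD. *Cckar* had 0.0304% to 0.0423% on the SCD and 0.0163% to 0.0240% on the HFD, *Rbpjl* 0.0148% to 0.0451% and 0.00863% to 0.0124%, and *Pnliprp2* 0.574% to 0.664% and 0.486% to 0.544%. In both genotypes, then, the granule glycoprotein, the cholecystokinin receptor and a factor of the enzyme genes took a smaller share of the acinar sum in the older, HFD-fed mice.

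Between genotypes, the shares did not overlap in 8 of the 36 genes on the HFD. *Rbpjl* had a larger share in *Pax4* R192H mice, and *Cela1*, *Cela3a*, *Dnase1*, *Zg16*, *Bhlha15*, *Nr5a2* and *Cckar* a smaller one. On the SCD 1 gene was apart (*Klk1*, smaller). Of the second table, the shares of 7 genes were apart, with *Prss2*, *Prss3* and *Sycn* larger and *Cela2a*, *Ctrc*, *Pla2g1b* and *Tff2* smaller in *Pax4* βiKO mice. Shares of the acinar sum are defined among the 36 genes only, so no share of all genes stands beside these counts, nor beside the 7 genes apart between the diets, and they are a description.

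**Figure D5:**
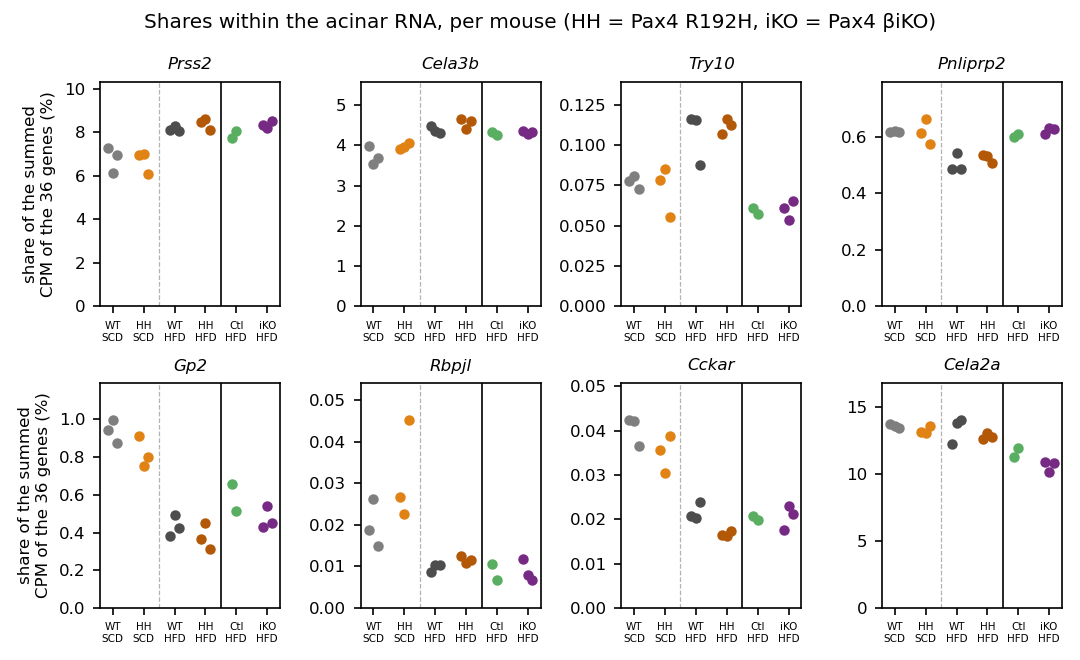
Share of the summed CPM of the 36 acinar genes (percent, axis from 0) of 8 genes in each mouse (points), by group; the solid line divides the 2 tables and the dashed line the diets of the first table. The first 7 panels are the genes whose shares do not overlap between the 6 SCD-fed and the 6 HFD-fed mice of the first table, with Prss2, Cela3b and Try10 higher and the other 4 lower on the HFD, and Cela2a is shown as a gene that stays between 10.2% and 14.0%.

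Other genes of acinar cells were looked at beside the 36. Of 19 further enzymes and secreted proteins tested, 3 rose in HFD-fed *Pax4* R192H against wildtype islets, where 1.46% of all genes tested were called higher, and the median log2 fold change was 1.32. They were the amylase gene *Amy2b* (1.43 ± 0.31, edgeR adjusted p = 0.0306), the trypsin inhibitor gene *Spink1* (1.42 ± 0.33, edgeR adjusted p = 0.0414) and the pancreas-specific disulfide isomerase gene *Pdia2* (1.51 ± 0.33, edgeR adjusted p = 0.0332). *Spink1* was 24.3, 30.9 and 19.1 CPM in wildtype and 106, 44.1 and 47.9 CPM in *Pax4* R192H mice. The amylase genes *Amy2a2*, *Amy2a3* and *Amy2a4* were listed with identical values, and none was called in a comparison of genotypes. DESeq2 called 10 of the further enzymes and secreted proteins higher, against 3.62% of the genes it tested. Of 19 genes of secretory machinery tested, 5 rose by edgeR, with a median of 0.60, and 8 were called higher by DESeq2. The 5 are named here. They were *Dnajc3*, *Fkbp11*, *Rab26*, *Rab3d* and *Tmed6*. *Fkbp11*, a prolyl isomerase of the endoplasmic reticulum, was 27.7, 46.2 and 33.7 CPM in wildtype and 85.1, 106 and 97.6 CPM in *Pax4* R192H mice (log2 fold change 1.42 ± 0.20, edgeR adjusted p = 0.00429). Its level did not single out *Pax4* R192H replicate 1, the mouse in which 35 of the 36 acinar genes were highest. Nor did those of *Dnajc3* (871, 893 and 897 CPM in *Pax4* R192H replicates 1, 2 and 3), *Rab3d* (190, 201 and 198) and *Rab26* (2.25, 2.64 and 2.50). Of the 5 genes, only *Tmed6* (56.9, 31.2 and 29.7 CPM) was highest in replicate 1. Of 3 genes tested that mark stressed acinar cells or acinar cells turning duct-like, clusterin (*Clu*) rose (0.87 ± 0.15, edgeR adjusted p = 0.00904), and *Krt17* was too low to be tested. On the SCD and in the *Pax4* βiKO comparison, edgeR called none of these genes. No marker of macrophages (6 genes), endothelial cells (4), stellate cells and fibroblasts (6) or erythrocytes (4) was called in the comparison of genotypes on the HFD, and the summed CPM of the macrophage markers ranged from 22.5 to 25.2 in wildtype and from 19.9 to 31.6 in *Pax4* R192H mice.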

How the data were processed

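Total RNA was extracted with TRIzol from isolated islets of 17 mice and sequenced as paired-end, stranded total RNA libraries. The authors aligned the reads to mm10 with STAR 2.7.1, estimated expected counts per gene with RSEM 1.3.3 and deposited them as whole numbers in 2 tables. The deposited expected counts were used as they are, each table on its own, with total counts as given in the report.

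Genes were kept with edgeR's filterByExpr (minimum count 10), scaled by TMM and tested with edgeR's quasi-likelihood test (edgeR 4.0.16, limma 3.58.1, R 4.3.3) in 1 model over all groups of a table, with Benjamini-Hochberg adjustment over all genes tested (19137 and 20167). Genes with an adjusted p-value under 0.05 and a log2 fold change beyond 0.5 in either direction were called. Standard errors are the absolute log2 fold change divided by the square root of F. DESeq2 1.42.0 with default parameters, the study's tool, was an alternative. All 36 members passed the filter in both tables. The fits were tested on simulated data.

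The 36 members and the other lists (further acinar enzymes, secretory machinery, duct, islet endocrine, acinar stress, macrophage, endothelial, stellate and erythrocyte markers) were chosen with earlier results of these data known. Values per mouse are given for members called in a comparison of genotypes, the highest of each role, the transcription factors, *Cckar* and members whose sign opposes the median. From other lists, genes called in a comparison of genotypes and up to 3 of the most abundant are named. Samples were grouped by their labels. Beyond replicate numbers, nothing in the labels pairs mice, and p-values measure the spread between these mice. Gene positions and transcripts are from GENCODE M21 (GRCm38) and promoters from RefSeq (GRCm38.p6). Alternatives were other scalings, filters, models and leaving out each mouse. Leaving out both mice numbered 1 of the second table was chosen after seeing the data.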

Additional observations from a re-analysis of the deposited data

How the results depend on the processing

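The number of acinar genes called, not their direction, depended on the processing in *Pax4* R192H against wildtype islets on the HFD. Against 10 called, where 1.46% of all genes tested were called higher, 3 were called without scaling (0.345% of all genes), 32 without a filter on low counts (1.98%), 27 with at least 10 counts in every sample (3.2%), 29 by DESeq2 (3.62%) and 1 with only the groups compared in the model (1.3%). Leaving out 1 mouse gave 0 to 9 called (0.301% to 1.42% of all genes higher), with a median log2 fold change of 0.86 to 1.74. In the interaction of genotype and diet, against 0, 30 were called without a filter (1.16% of all genes higher) and 5 by DESeq2 (1.06%), and leaving out 1 mouse gave 0 to 1 (0% to 0.33%), with a median of 1.03 to 1.93. Without a filter, 3 were called in HFD-fed against SCD-fed wildtype islets (*Gp2*, *Try5* and *Try10*), with 2.32% of all genes called in either direction, and 29 in *Pax4* βiKO against control islets, where the number of all genes called rose from 18 to 697 (1.8%). In HFD-fed against SCD-fed *Pax4* R192H islets the median was 1.04 without scaling and 1.12 to 2.04 with 1 mouse left out, and 24 to 30 members were called (5.74% to 7.54% of all genes higher). The cause of these differences was not tested.

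The replicate numbers of the labels were also fitted as a replicate block. Same-numbered mice did not deviate together throughout, with correlations of 0.193, 0.113 and -0.0526 between the HFD-fed groups of the first table. In the second table the correlations were 0.0729 and 0.0382. The deviations of its 2 controls are equal and opposite, so exchanging their numbers turned these values to -0.0729 and -0.0382. A pairing by number was thus not shown, and correlations over all genes cannot decide it. With the replicate block 0 members were called in *Pax4* R192H against wildtype islets on the HFD and 2 in *Pax4* βiKO against control islets (*Tff2* and *Prss3*), where 0.768% and 0.436% of all genes were called in either direction, with medians of 1.43 and -0.43, and *Bhlha15* in the latter was 0.049. *Ptf1a* was then at an edgeR adjusted p of 0.0903 between the diets in *Pax4* R192H islets.

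In *Pax4* βiKO against control islets the sign depended on single mice, mostly on control replicate 1. With 1 mouse left out, the median ran from -1.74 to 0.77. The log2 fold change ran from -0.32 to 0.085 for *Bhlha15*, -1.65 to 0.71 for *Cckar*, -1.85 to 0.62 for *Cela2a*, -1.74 to 0.80 for *Cela3b*, -1.77 to 0.82 for *Cpb1*, -2.40 to 0.23 for *Ctrc*, -2.00 to 0.80 for *Cuzd1*, -0.32 to 0.16 for *Dnase1*, -0.14 to 0.57 for *Gatm*, -1.65 to 0.27 for *Nr5a2*, -1.75 to 0.78 for *Pnlip*, -1.80 to 0.76 for *Pnliprp1*, -1.68 to 0.79 for *Pnliprp2*, -1.64 to 0.82 for *Prss2*, -0.30 to 2.60 for *Prss3*, -1.38 to 1.27 for *Ptf1a*, -2.18 to 1.36 for *Rbpjl*, -1.74 to 0.77 for *Rnase1*, -1.73 to 0.85 for *Try10*, -1.70 to 1.00 for *Try4*, -1.80 to 1.46 for *Try5* and -1.77 to 0.55 for *Zg16*. With both mice numbered 1 left out, *Dnase1* was 0.14, *Ptf1a* 0.55 and *Try5* 0.22. Over all named members and alternatives, 692 values kept their direction and side of the threshold, 81 no longer passed, 43 newly passed and 28 changed sign.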

Other observations

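*Prss1*, a further trypsinogen that shares sequence windows with *Prss3*, is named here after its values were seen. It was 0.929 and 0.0663 CPM in the 2 controls and 18.5, 2.66 and 3.25 CPM in the 3 *Pax4* βiKO mice, all 3 above both controls, and was not called by edgeR (log2 fold change 4.06 ± 1.18, edgeR adjusted p = 0.269). On the HFD it was 0.213, 0.682 and 0.104 CPM in wildtype and 1.97, 1.51 and 1.11 CPM in *Pax4* R192H mice, again without overlap and without a call (log2 fold change 2.21 ± 0.78, edgeR adjusted p = 0.164). Its fitted value was thus above 0 in both comparisons, as that of *Prss3* was, while the other trypsinogens among the 36 genes had values below 0 in the *Pax4* βiKO comparison. Because reads of these genes are divided by estimate, which of the copies was read more often cannot be told from these counts.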
